A study of Rattus norvegicus with 8 samples.

Results

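The 10 genes described here encode heat shock proteins, measured in rat PC12 cells of the line Htt14A2.5. They comprise the small heat shock proteins Hspb1, Hspb2 and Cryab, the HSP70 proteins Hspa1a, Hspa1l and Hspa9, the HSP110 proteins Hspa4 and Hsph1, and the J-domain proteins Dnaja1 and Dnajb1. They were found by symbol: every probe set that the array's annotation assigns to 1 of these symbols alone was taken, which gave 21 of the 8799 probe sets on the array. The 10 genes are among 4737 with such a probe set. A further 5 probe sets list a member among several symbols, 4 as Hspa1a or Hspa1b and 1 as Hspb1 or Asb2. They are not counted among the 21, and their values are given beside those of Hspa1a. Probe sets of a gene are numbered here from the highest to the lowest mean signal. Hspa9 encodes the mitochondrial HSP70, so the word cytosolic fits the other members only.

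PC12 cells derive from a phaeochromocytoma, a tumour of chromaffin cells of the adrenal medulla. The induced group is 4 samples of Htt14A2.5 given ponasterone, a steroid inducer, for 48 h, and the uninduced group is 4 samples of the line without it, as the sample titles give them. Samples of both groups carry the same inducible transgene, a truncated mutant huntingtin exon 1 of human origin, and no cells without the transgene were compared, so effects of ponasterone itself and of the transgene product cannot be told apart. The free-text descriptions mention induction for all 8 samples and do not separate the groups. Neither the promoter of the transgene nor the culture history of the replicates is stated in the labels, and p-values then measure only the spread between these samples, which may be technical.

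Heat shock proteins are chaperones that hold unfolded proteins in solution or help them to fold. Small heat shock proteins form large oligomers that bind unfolding proteins without using ATP. HSP70 proteins bind and release clients in a cycle of ATP hydrolysis that J-domain proteins start and that HSP110 proteins, as nucleotide exchange factors, reset. The transcription factor Hsf1 switches on many of these genes after heat or protein damage by binding heat shock elements, inverted repeats of the unit GAA. In cell models of polyglutamine disease, HSP70 and J-domain proteins are known to alter the aggregation of huntingtin exon 1.

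The promoter sequences below are shown because heat shock elements are the best known regulatory sites of these genes. RefSeq windows from 250 bases before to 50 bases after the annotated start were given for 8 of the 10 genes, and the windows of Hspb2 and Cryab are not analysed here. Each window was searched for GAANNTTC and TTCNNGAA, 2 alternating units, and for GAANNTTCNNGAA and TTCNNGAANNTTC, 3 alternating units. These patterns pair with each other or themselves on the opposite strand, so both strands were covered, and matches that overlap were counted singly. A 2-unit match was in 5 of the 8 windows, those of Hspb1, Hspa9, Hsph1, Dnaja1 and Dnajb1, and in 15.9% of all 33469 rat windows. A 3-unit match was in the windows of Hsph1 and Dnaja1 and in 0.798% of all windows. Capitals mark the 2-unit matches.
Hspb1 (GRCr8 chr12:26432252-26432551, minus strand): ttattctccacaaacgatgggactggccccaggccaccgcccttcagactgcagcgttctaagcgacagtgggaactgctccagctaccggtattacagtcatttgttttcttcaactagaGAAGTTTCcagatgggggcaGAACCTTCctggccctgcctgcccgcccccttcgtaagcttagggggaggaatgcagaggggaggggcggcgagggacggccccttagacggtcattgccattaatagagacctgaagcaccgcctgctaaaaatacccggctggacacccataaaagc
Hsph1 (GRCr8 chr12:10427118-10427417, plus strand): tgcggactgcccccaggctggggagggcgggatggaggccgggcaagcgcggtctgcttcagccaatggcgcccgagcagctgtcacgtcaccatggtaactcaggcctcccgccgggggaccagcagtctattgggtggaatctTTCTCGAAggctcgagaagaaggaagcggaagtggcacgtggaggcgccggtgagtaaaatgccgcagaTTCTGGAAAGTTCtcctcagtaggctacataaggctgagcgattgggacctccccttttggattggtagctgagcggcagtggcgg
Dnaja1 (GRCr8 chr5:60638154-60638453, plus strand): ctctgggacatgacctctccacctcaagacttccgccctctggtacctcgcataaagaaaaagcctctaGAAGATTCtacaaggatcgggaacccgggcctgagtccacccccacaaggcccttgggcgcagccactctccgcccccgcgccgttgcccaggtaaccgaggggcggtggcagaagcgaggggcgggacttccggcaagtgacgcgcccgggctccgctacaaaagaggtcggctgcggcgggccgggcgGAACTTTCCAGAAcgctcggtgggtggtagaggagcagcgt
Dnajb1 (GRCr8 chr19:41431092-41431391, minus strand): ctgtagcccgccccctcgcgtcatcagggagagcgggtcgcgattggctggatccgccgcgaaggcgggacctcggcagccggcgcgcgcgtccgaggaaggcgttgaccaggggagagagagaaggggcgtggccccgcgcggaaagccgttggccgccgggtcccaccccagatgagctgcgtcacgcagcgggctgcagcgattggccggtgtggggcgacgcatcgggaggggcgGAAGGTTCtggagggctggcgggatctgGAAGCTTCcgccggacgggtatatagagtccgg

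In the Hspb1 window the matches lay at -129 to -122 and -109 to -102 relative to the start. The 3-unit match of Hsph1 lay at -36 to -24 and that of Dnaja1 at 10 to 22, and Dnajb1 had matches at -11 to -4 and 18 to 25. No match was found in the windows of Hspa1a, Hspa1l and Hspa4, which says only that these letters are not in these windows. A match is a description of the sequence and not evidence of binding.

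Values are scaled signals, a linear intensity, from 1 array per sample, and the number of arrays limits the precision. The array medians were 97.5 to 134.9 in induced and 106.3 to 127.0 in uninduced samples. On the first principal component the induced arrays scored -17.9 to 34.5 and the uninduced arrays -19.6 to 11.1, with induced replicate 4 the highest. The log2 ratio of 3' to 5' control signals, averaged over Gapdh, beta-actin and hexokinase, was 0.34 to 0.62 in induced and 0.49 to 0.71 in uninduced arrays, a difference of -0.11 (two-sided exact permutation test, p = 0.229, where 4 against 4 arrays cannot give less than 0.0286). Of 11 PC12 markers 9 were on the array, and 5 of them (Chgb, Scg2, Syp, Snap25 and Phox2a) lay above the 95th percentile of background controls on all 8 arrays. Th, the rate-limiting enzyme of catecholamine synthesis, did not: it read 32.5 to 93.5 in induced and 33.4 to 164 in uninduced cells. Ddc, which makes dopamine, averaged 23.8 in induced and 31.0 in uninduced cells, and Dbh, which makes noradrenaline, 10.8 in induced and 7.93 in uninduced cells. Phox2a, a transcription factor of noradrenergic cells, fell by 0.70 ± 0.09 (limma adjusted p = 0.00048) and the vesicle protein Syp by 0.47 ± 0.09 (limma adjusted p = 0.0067). By the brightest probe set of each gene 7 PC12 markers were tested, 3 higher and 4 lower, and only Phox2a and Syp were called. The 3 higher were Chgb (0.16 ± 0.11), Scg2 (0.35 ± 0.17) and Snap25 (0.22 ± 0.13). The summed signal of the PC12 list was 19580.0 to 20689.7 in induced and 20406 to 24834 in uninduced arrays. For 6 of 6 fibroblast markers it was 1552 to 1921 in induced and 1407 to 1784 in uninduced arrays. For 2 of 5 Schwann cell and glia markers it was 79.6 to 143 in induced and 92.5 to 188 in uninduced arrays, and for 2 of 5 leukocyte markers 34.2 to 176 in induced and 31.6 to 142 in uninduced arrays. These sums take the brightest probe set of each gene, and by it none of the markers of these other cells was called or at a signal of 0. Over all probe sets of these lists, 2 of the 9 tested for fibroblasts were called, both of the collagen gene Col1a1. None of the 2 for Schwann cells and glia or the 1 for leukocytes was called. The share called among all tested probe sets was 7.06%. The brighter called Col1a1 probe set averaged 366 ± 58.9 in induced and 220.5 ± 32.3 in uninduced cells (limma adjusted p = 0.0244). The other called one averaged 235 ± 49.4 in induced and 113 ± 39.7 in uninduced cells (limma adjusted p = 0.0300). Of the uncalled Col1a1 probe sets, the brightest differed by 0.13 ± 0.21. The next differed by 0.70 ± 0.21 without overlap of the groups (limma adjusted p = 0.0712). The part of such cells in the results was not tested. In such bulk samples, fewer cells of a type and less RNA per cell cannot be told apart.

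Among the 10 genes, Hspb1 was the one with called probe sets of its own, and 3 of its 4 were 2.14-fold to 2.39-fold higher in induced cells. Probe sets shared by Hspa1a and its near-identical copy Hspa1b, the stress-inducible HSP70 genes, were also higher, with 2 of 3 tested called at 1.36-fold and 2.00-fold. The uncalled one averaged 86.3 in induced and 31.7 in uninduced cells, near background. The other 9 genes had log2 differences from -1.11 to 0.86 in their own probe sets, and none of these 15 tested probe sets passed. Differences were fitted with limma on log2(signal + 7) over the 6129 probe sets with a mean signal of at least 36.0, with Benjamini-Hochberg adjustment over all of them and a threshold of 0.05. Of the 21 probe sets 19 were tested, and the second probe set of Hspb2 and the third of Hspa9 lay under the filter. The 3 calls are 15.8% of the 19, all of them higher, beside 7.06% called among all tested probe sets in either direction and 4.1% called higher. The 3 belong to 1 gene and are not separate observations. Induced and uninduced signals were fully separate in 4 of the 19 (Hspb1 probe sets 1 to 3 and Hspa1l). This is 21.1%, beside 13.6% of all tested probe sets. The Hspa1l signals were under the background controls' 95th percentile on every array. Hspa1l averaged 33.3 in induced and 77.75 in uninduced cells, so it reached the filter of 36.0 only through the uninduced group. The other 3 belong to 1 gene, so these shares cannot be compared as separate observations. The median log2 difference of the 19 was 0.21, and over the 10 genes by probe set 1 alone it was 0.02 with 5 higher and 5 lower, beside -0.05 over all tested probe sets.

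**Figure D1:**
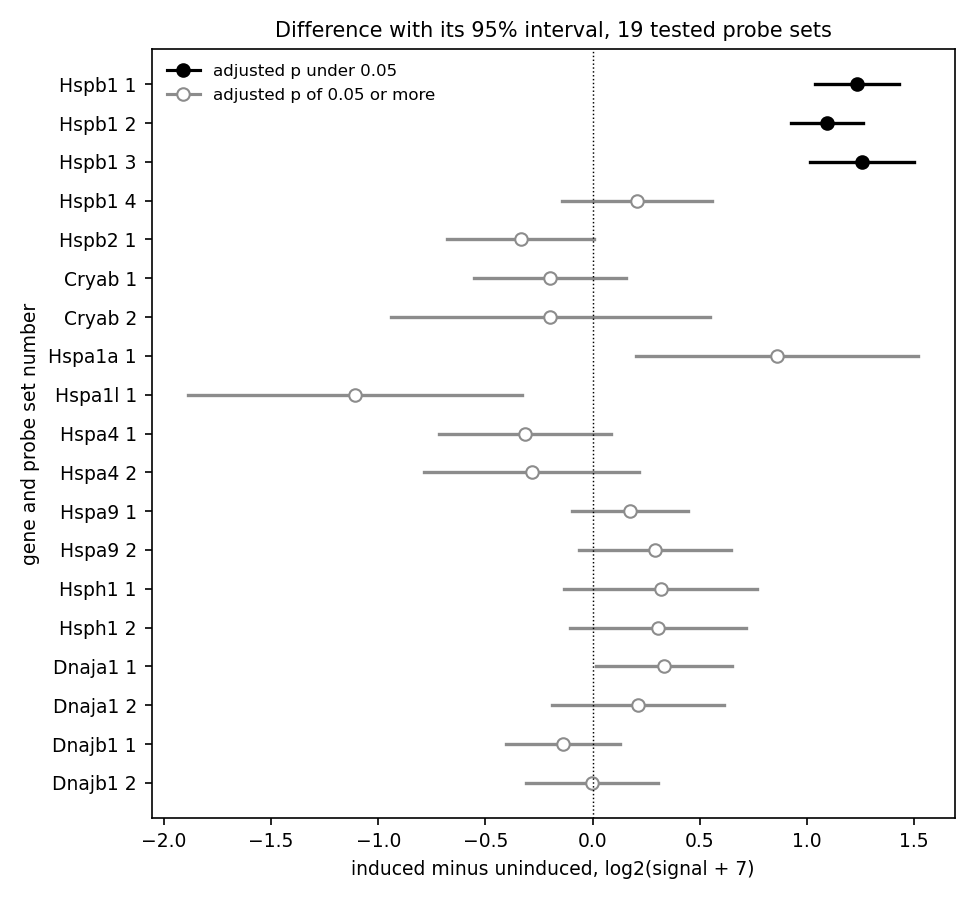
Log2 difference, induced minus uninduced, of the 19 tested probe sets (points) with 95% intervals from the limma fit (bars). Hspb1 probe sets 1 to 3 lie between 1.10 and 1.26 with intervals from 0.93 upward, while the intervals of most others include 0.

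Hspb1 (also Hsp25 or Hsp27), a small heat shock protein that binds unfolding proteins and actin filaments, rose in induced cells. Probe set 1 read 28642, 27562, 26764 and 27356 in induced replicates 1 to 4, and 13396, 11985, 11296 and 10397 in uninduced replicates 1 to 4. Every induced array was above every uninduced array. The log2 difference was 1.23 ± 0.09 (SE; 95% interval 1.04 to 1.43; limma adjusted p = 5.0e-06), a fold of 2.35.

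Probe set 2 read 25161, 25629, 23578 and 23841 in induced cells, against 12359, 11392, 11054 and 11159 in uninduced cells, a log2 difference of 1.10 ± 0.08 (limma adjusted p = 4.1e-06). Probe set 3 read 26664, 26793, 21938 and 23479 in induced cells, against 11481, 10664, 10931 and 8409 in uninduced cells, a log2 difference of 1.26 ± 0.11 (limma adjusted p = 2.5e-05). In all 3 probe sets the groups stood apart, and the coefficient of variation was 2.84% to 9.73% in induced and 5.18% to 13.0% in uninduced cells. By p-value these probe sets ranked 15, 13 and 28 of the 6129 in the order of their numbers, and by size of rise 72, 98 and 69. All 3 calls held in each of the 18 alternative fits, with log2 differences from 1.07 to 1.31 and adjusted p-values up to 0.0023.

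The fourth Hspb1 probe set did not show this rise. It read 1596, 1229.7, 1919.9 and 2086 in induced cells, against 1704, 1341, 1264 and 1529.7 in uninduced cells. The groups overlapped, with induced replicate 2 the lowest of the 8 arrays, and the log2 difference was 0.21 ± 0.16 (95% interval -0.14 to 0.56; limma adjusted p = 0.571). Per the array's annotation it was designed from the same source sequence as probe set 2, whose signal more than doubled. The log2 ratio of probe set 4 to probe set 1 was -4.48 to -3.71 in induced and -3.15 to -2.76 in uninduced arrays. The ratio differed by -1.03 on the log2 scale without overlap (two-sided exact permutation test, p = 0.0286, the smallest that 4 against 4 arrays can give; adjusted p = 0.257 over the 9 such pairs of probe sets among the 10 genes, so it fails the adjustment). Whether the 4 probe sets read the same transcripts was not tested.

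**Figure D2:**
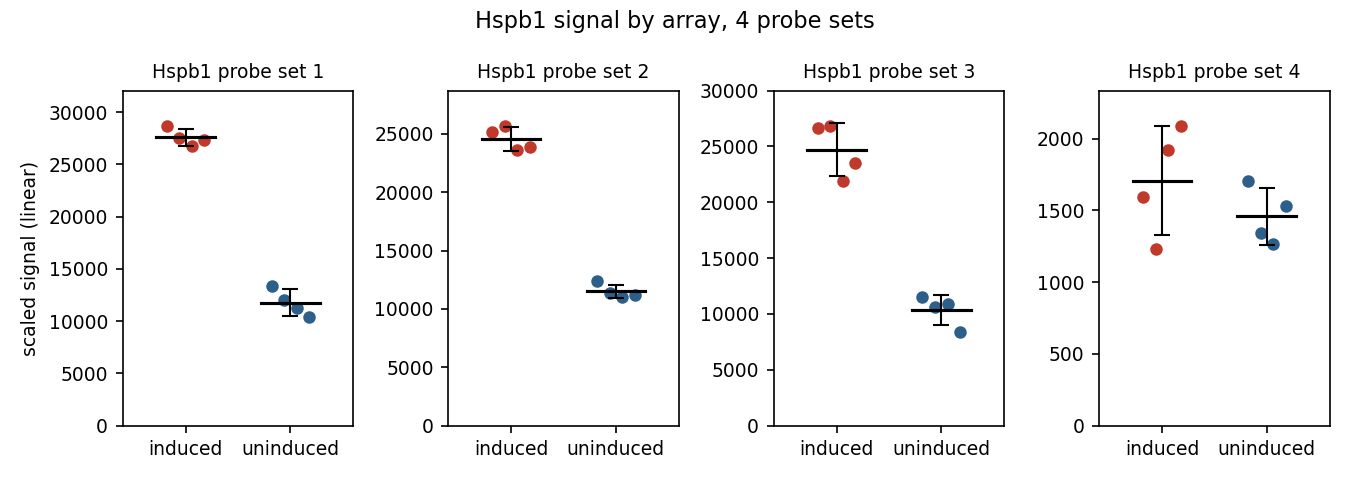
Scaled signal (linear axis from 0) of the 4 Hspb1 probe sets, with 1 point per array and the mean ± SD of 4 arrays as bars. In probe sets 1 to 3 all induced points lie above all uninduced points, and in probe set 4 the groups overlap, at 1229.7 to 2086 in induced and 1264 to 1704 in uninduced cells.

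The source label of replicate 2 in both groups is worded differently from that of the other 6 samples. Hspb1 probe sets 1 to 3 differed by 1.20, 1.17 and 1.33 between the arrays of that pair, and by 1.25, 1.07 and 1.23 between the groups of the other 6. Among all 19 tested probe sets, 5 differed in sign between the pair and the other arrays: Hspb1 probe set 4, Hspa9 probe set 2, Dnaja1 probe set 2 and both of Dnajb1. None of those 5 was called.

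The other small heat shock proteins had lower mean signals in induced cells, and neither gene passed. Hspb2, a small heat shock protein of muscle, read 325, 362, 375 and 484 in induced cells, against 511, 478, 561 and 402 in uninduced cells (probe set 1). Induced replicate 4 was above 2 of the uninduced arrays, and the other induced arrays were below all of them. The log2 difference came to -0.34 ± 0.16 (95% interval -0.68 to 0.01; limma adjusted p = 0.293). Without induced replicate 4, it came to -0.45 (limma adjusted p = 0.115). The second Hspb2 probe set, from the same source sequence, read 22.7 to 49.4 in induced and 30.5 to 40.9 in uninduced cells, under the background controls' 95th percentile on all 8 arrays.

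Cryab, alpha B-crystallin of lens, muscle and glia, lies next to Hspb2 on chromosome 8, and the annotated genes overlap (assembly GRCr8). Cryab probe set 1 read 193, 215, 210 and 262 in induced cells, against 246, 240, 239 and 285 in uninduced cells. Replicate 4 was the highest in each group, and only that induced array reached the uninduced range. Induced cells differed by -0.20 ± 0.16 (limma adjusted p = 0.604). Probe set 2 read 259, 213, 203 and 71.4 in induced cells, against 223, 238, 177 and 153 in uninduced cells, with induced replicate 4 far below the rest. Its log2 difference was also -0.20, with a wider SE of 0.34, and it turned to 0.19 without induced replicate 4. Whether probe sets of these overlapping genes read the same transcripts was not tested.

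Stress-inducible HSP70 transcripts rose in 2 probe sets that the annotation assigns to Hspa1a or Hspa1b together, which were described here after their values were seen. The brighter read 961, 819, 860 and 937 in induced cells, against 761, 603, 662 and 598 in uninduced cells. The second read 277, 256, 287 and 332 in induced cells, against 166, 142, 147 and 111 in uninduced cells. In both, every induced array was above every uninduced array.

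The log2 difference of the brighter was 0.45 ± 0.12 (95% interval 0.19 to 0.70; limma adjusted p = 0.0367), and that of the second 1.00 ± 0.18 (95% interval 0.60 to 1.39; limma adjusted p = 0.0052). The call of the second held in all 18 alternatives, with differences from 0.89 to 1.08. The call of the brighter held in 7 of 18, and its difference ran from 0.40 to 0.52 over all 18. It was lost when any 1 array other than uninduced replicate 1 was left out (limma adjusted p up to 0.121). It was also lost with the replicate block (limma adjusted p = 0.0681) and without the intensity trend (0.0906). Median centring (limma adjusted p = 0.150) and leaving out the pair of other source label wording (0.161) lost it too. The next shared probe set differed by 1.27 ± 0.70 (limma adjusted p = 0.388), and the dimmest lay under the filter. Which of the 2 genes these signals come from cannot be told. The probe set of Hspb1 or Asb2 differed by -0.44 ± 0.56 at signals near background.

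The single probe set assigned to Hspa1a alone read 160.1, 163, 184 and 94.7 in induced cells, against 69.6, 93.7, 110.0 and 49.3 in uninduced cells. Of the induced arrays 3 were above all uninduced arrays, and replicate 4 lay below uninduced replicate 3. On the log2 scale the groups differed by 0.86 ± 0.30 (95% interval 0.20 to 1.52; limma adjusted p = 0.134). Of the 8 signals 3, those of induced replicates 1 to 3, were above the background controls' 95th percentile of the same array, which ran from 102 to 137 in induced and 128 to 183 in uninduced arrays. Over the alternatives the difference ran from 0.67 to 1.06, with the lowest adjusted p of 0.055 without induced replicate 4. The difference had the same sign as those of the called shared probe sets. Hspa1b lies on the same chromosome, and whether this probe set also reads its transcript was not tested.

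Hspa1l, an HSP70 protein best known from the testis, read 46.6, 23.4, 22.1 and 41.2 in induced cells, against 58.3, 78.1, 82.7 and 91.9 in uninduced cells. All induced arrays were below all uninduced arrays, yet all 8 values were under the background controls' 95th percentile. On the log2 scale the groups differed by -1.11 ± 0.36 (limma adjusted p = 0.0992). It passed in 1 of 17 alternatives, the fit without an intensity trend (adjusted p = 0.0396), and its size ran from -1.26 to -0.76 over them. The annotated genes of Hspa1l and Hspa1a overlap on chromosome 20 (GRCr8), and their differences had opposite signs.

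Hspa9, the mitochondrial HSP70 that helps to pull proteins through the inner membrane, had small positive differences. Probe set 1 read 1255, 996, 903 and 891 in induced cells, against 849, 850.3, 966 and 885 in uninduced cells, where induced replicates 1 and 2 were above all uninduced arrays and replicates 3 and 4 lay within their range. Its log2 difference was 0.18 ± 0.12 (limma adjusted p = 0.523), and that of probe set 2 was 0.29 ± 0.16 (adjusted p = 0.392). The third probe set, under the filter, read 7.5 to 13.7 on all arrays.

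The nucleotide exchange factors Hspa4 and Hsph1 had differences of opposite sign. Neither gene was called, and they were not tested against each other. Hspa4 probe set 1 read 1371, 1209, 764 and 863 in induced cells, against 1164, 1237, 1616 and 1139.8 in uninduced cells. Induced replicates 3 and 4 were lowest, and replicates 1 and 2 lay within the uninduced range. The log2 difference was -0.32 ± 0.18 (limma adjusted p = 0.415), and probe set 2, from the same source sequence, differed by -0.28 ± 0.23.

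Hsph1, known as Hsp105 and itself induced by heat, read 3133, 3449, 1743 and 2531 in induced cells, against 2288, 2400.2, 2366 and 1519.9 in uninduced cells (probe set 1). Of the induced arrays 3 were above all uninduced arrays, while replicate 3 was below 3 of them. The log2 difference was 0.32 ± 0.21 (limma adjusted p = 0.477). Leaving out induced replicate 3 gave 0.51, which was not called either (limma adjusted p = 0.124). Probe set 2 differed by 0.31 ± 0.19. The promoter windows of Hsph1 and Dnaja1, printed above, each hold a 3-unit match, which is not evidence of binding.

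The J-domain proteins, which deliver clients to HSP70 and start its ATP hydrolysis, were not called in either gene. Dnaja1 probe set 1 read 2460, 1941, 1729 and 1804 in induced cells, against 1479.7, 1782, 1812 and 1233 in uninduced cells. Induced replicates 1 and 2 were above all uninduced arrays, and replicates 3 and 4 were not. Its log2 difference was 0.33 ± 0.15 (95% interval 0.01 to 0.65; limma adjusted p = 0.251), and that of probe set 2 was 0.21 ± 0.18.

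Dnajb1, known as Hsp40 and strongly induced by heat shock, read 1065, 1198, 1276 and 1318 in induced cells, against 1598, 1119, 1298 and 1366 in uninduced cells (probe set 1). The groups overlapped, and all induced arrays but replicate 1 lay within the uninduced range. Its log2 difference was -0.14 ± 0.12 (95% interval -0.41 to 0.13; limma adjusted p = 0.631), and that of probe set 2 was -0.0030 ± 0.14 (95% interval -0.31 to 0.31). For both probe sets the interval leaves out a doubling.

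**Figure D3:**
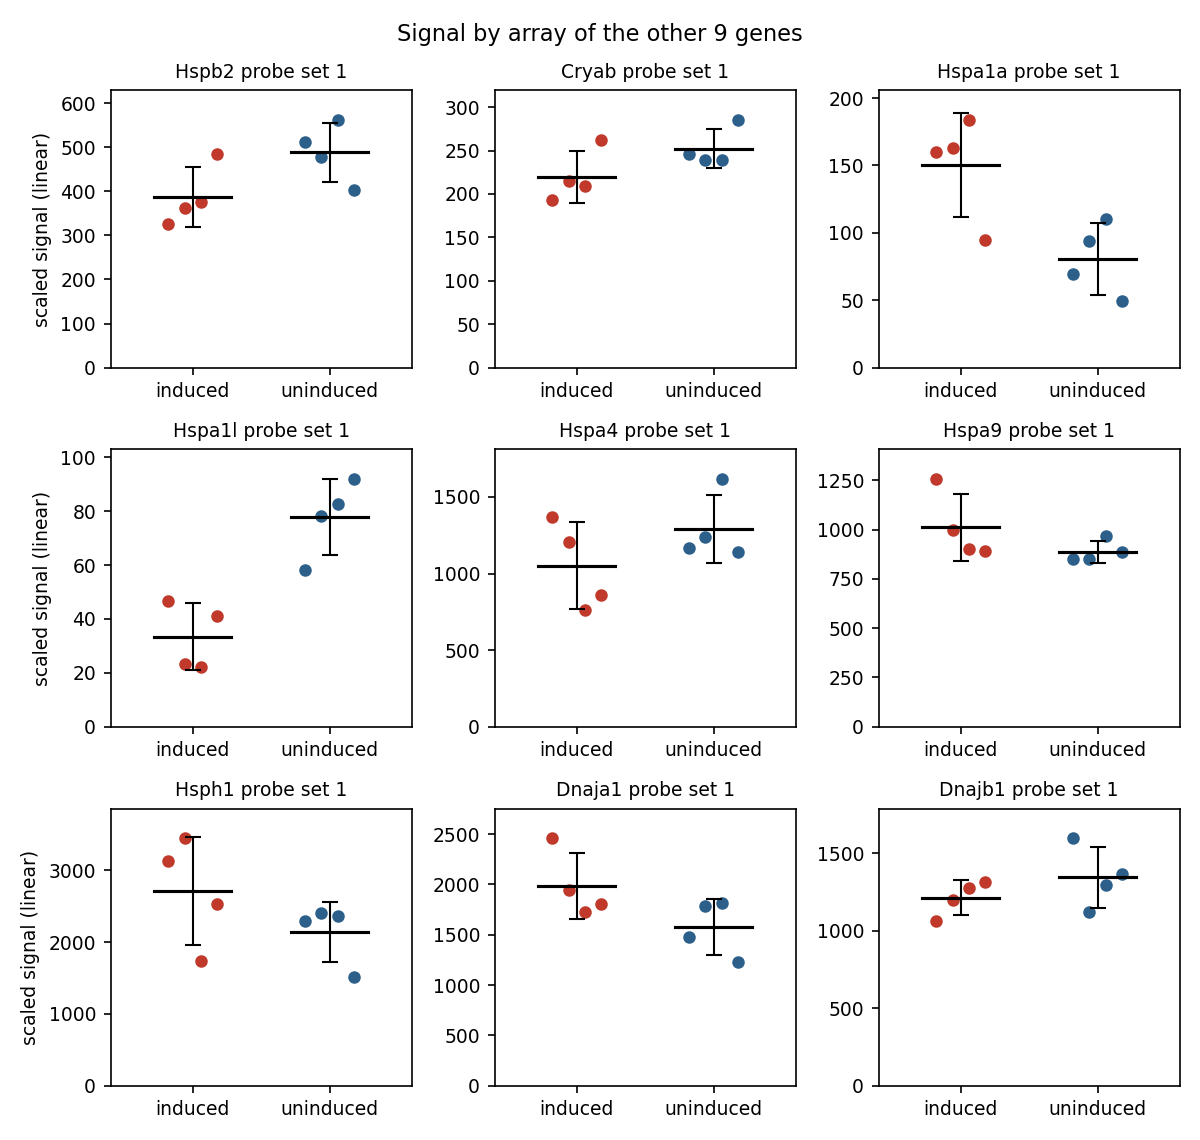
Scaled signal (linear axes from 0) of probe set 1 of the other 9 genes, with 1 point per array and the mean ± SD of 4 arrays as bars. Only the Hspa1l groups do not overlap, at 22.1 to 46.6 in induced and 58.3 to 91.9 in uninduced cells.

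Where a gene had several tested probe sets, 7 of 7 genes had the same sign in all of them, with sign changes under some alternatives for Cryab and Dnajb1. Of the 15 tested probe sets assigned to 1 of the other 9 genes alone, 13 had a 95% interval within 1 log2 unit of 0, the exceptions being Hspa1a and Hspa1l. Apart from Hspb1 probe set 4, no pair of probe sets of a gene had an unadjusted p as small as 0.0286 for a change of their ratio. At an unadjusted p under 0.05 there were 6 of the 19 probe sets, beside 18.0% of all tested: Hspb1 probe sets 1 to 3, Hspa1a, Hspa1l and Dnaja1 probe set 1.

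Other chaperones, most of them cytosolic or mitochondrial, are given from lists of 73 genes chosen with earlier results of these data known. The lists leave out the main chaperones of the lumen of the endoplasmic reticulum, of which Hspa5, Hsp90b1 and Calr had 6 of 8 tested probe sets called, all higher in induced cells. Among all tested probe sets 7.06% were called in either direction, and these 3 genes were named after their values were seen. The counts that follow hold for the listed genes only. Of these 27 had a probe set with a single symbol, and 26 were tested, each by its brightest probe set. At an unadjusted limma p under 0.05 there were 2 of the 26 (Trap1 and Dnaja4), beside 18.0% of all tested probe sets. In limma 0 of the 26 were called in either direction, beside 7.06%. The median log2 difference of the 26 was 0.03 (15 higher and 11 lower). Over all their single-symbol probe sets 0 of 43 were called, at differences from -0.59 to 0.32. Of 5 tested probe sets that list one of these genes among several symbols 1 was called, that of Hsp90aa1 or the pseudogene symbol Hsp90aa1-ps17. It averaged 3217 ± 352 in induced and 2259 ± 197 in uninduced cells (SD, n = 4 each), a rise of 0.51 ± 0.10 (limma adjusted p = 0.0103). The brighter probe set with these symbols differed by 0.20 ± 0.10 and was not called.

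Hsf1, the main heat shock transcription factor, averaged 1587 ± 232 in induced and 1632 ± 121 in uninduced cells (SD, n = 4 each), which differed by -0.05 ± 0.12 on the log2 scale (limma adjusted p = 0.899). The transcript level says nothing of the activity of the protein. Its other probe sets differed by -0.14 and -0.30 and were not called. For Hsf2 there was no single-symbol probe set. Trap1, the mitochondrial HSP90, averaged 1406 ± 230 in induced and 1825 ± 161 in uninduced cells, and differed by -0.39 ± 0.12 without overlap of the groups (limma adjusted p = 0.1003). Dnaja4, a J-domain protein, differed by 0.28 ± 0.12 (adjusted p = 0.241).

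By single-symbol probe sets, 0 of 8 genes of HSP90 and its cochaperones on the list and 0 of 5 J-domain proteins were called. Of the chaperonin and prefoldin genes 0 of 5, and of the HSP70 cochaperones 0 of 3, were called. At the 7.06% called among all tested probe sets, lists this short would often hold no call. The lowest p among chaperonins was that of Cct3, a subunit of the cytosolic chaperonin (0.25 ± 0.12, limma adjusted p = 0.283), and among HSP70 cochaperones that of Grpel1, the exchange factor of Hspa9 (0.12 ± 0.13). Of the other small heat shock proteins, Cryaa, alpha A-crystallin, had the lowest p by the brightest probe set and differed by 0.07 ± 0.20. The dimmer probe set of Hspb6 had a lower p and differed by 0.30 ± 0.19 (limma adjusted p = 0.455). Of the 2 listed HSP70 proteins tested, which leave out Hspa5, the lower p was that of Hspa13 (0.10 ± 0.42, limma adjusted p = 0.948). Its mean signals went the other way, at 178 in induced and 195.5 in uninduced cells. Uninduced replicate 1 read 51.1, under the background controls' 95th percentile of that array (183).

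**Figure D4:**
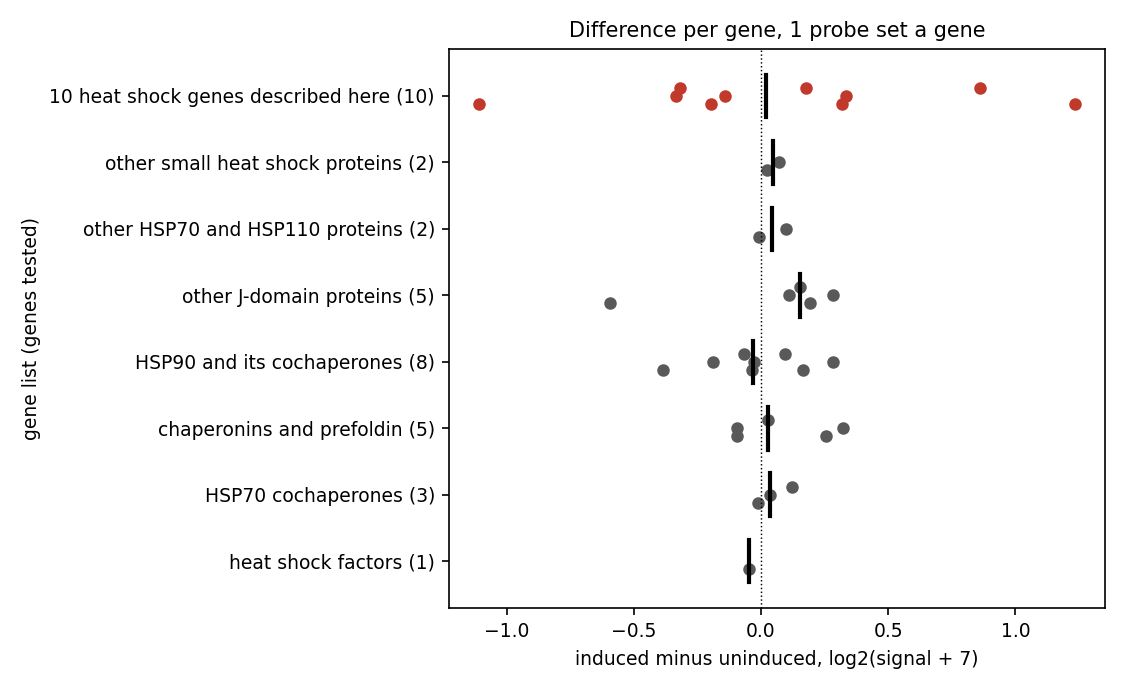
Log2 difference, induced minus uninduced, of 1 probe set per gene (points) and the median (black bar), for the 10 genes and 7 lists of other chaperone genes. Hspb1 lies at 1.23, and the 26 listed chaperone genes, which do not include Hspa5, Hsp90b1, Calr or shared probe sets, lie between -0.59 and 0.32.

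The genes whose signals followed Hspb1 most closely over the 8 arrays were found by the root mean square difference of log2 signals, each centred on its uninduced mean, among 1770 probe sets with a mean signal of at least 500. They were Dgka, a diacylglycerol kinase (0.069), Myadm, a membrane protein (0.12), and Slc15a4, a lysosomal transporter of histidine and peptides (0.16). The same measure between Hspb1 probe set 1 and its probe sets 2, 3 and 4 was 0.12, 0.097 and 0.77. Dgka averaged 879 ± 43.1 in induced and 385 ± 41.6 in uninduced cells (SD, n = 4 each), with a log2 difference of 1.18 ± 0.12. Slc15a4 averaged 700 in induced and 329 in uninduced cells, so it and Dgka reached the minimum of 500 only through the induced group. The measure mostly finds genes with a difference of the same size, since the groups differ far more than the arrays within them.

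**Figure D5:**
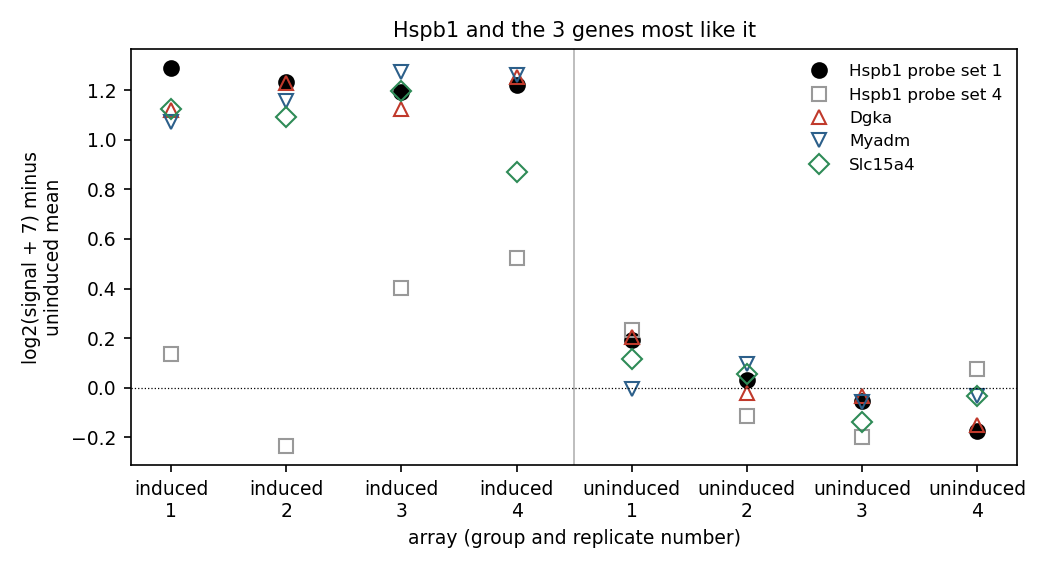
Log2(signal + 7) of each array minus the gene's uninduced mean, for Hspb1 probe sets 1 and 4 and for Dgka, Myadm and Slc15a4. Hspb1 probe set 1 lies at 1.19 to 1.29 in the 4 induced and at -0.17 to 0.19 in the 4 uninduced arrays.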

How the data were processed

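Affymetrix arrays of 8799 probe sets gave 1 value per probe set and sample. The deposited values are scaled signals, a linear intensity per probe set; the 2% trimmed mean was 500.8 to 500.9 on each array, so the authors had scaled the arrays, and the program that made them is not stated in any label or file header. Symbols came from the platform annotation (1 symbol for 7018 probe sets, several for 308, none for 1473), and all 10 gene identifiers matched RefSeq of assembly GRCr8. Computed here were log2(signal + 7), where 7 is the rounded 10th percentile of all values, and a filter at the 30th percentile of the mean signals (36.0). The 59 control probe sets were left out with 2611 others, which left 6129. Background was read from 38 of the controls. The test was limma 3.58.1 under R 4.3.3 (lmFit, eBayes with an intensity trend, 6 residual and 5.77 prior degrees of freedom), checked on simulated data. Errors of differences are SE and those of signals SD. Promoter windows came from RefSeq, GRCr8.

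The 10 genes, the chaperone and marker lists and the tests were chosen with earlier results of these data known. Other genes named are the called genes and the lowest p of each chaperone list by the brightest probe set, Hsf1, Hsf2 and the 3 genes most like Hspb1. Shared-symbol probe sets, Col1a1, Hsp90aa1, the dimmer probe set of Hspb6, Hspa5, Hsp90b1 and Calr were added after their values were seen. Alternatives were constants of 1 and 32, no filter, a filter at the 50th percentile, median centring, quantile normalization, no trend, the replicate number as a block, the source label wording as a term or its pair left out, and each array left out. Same-numbered arrays of the 2 groups deviated together with correlations of -0.14 to 0.19, so the numbers were not taken to pair them.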

Additional observations from a re-analysis of the deposited data

Results flagged for a closer look

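In 3 of 42 groups of 4 arrays, 1 array stood apart by its gap to the nearest other array over the group's range; chance gives about 1 in 20. Cryab probe set 1 read 284.9 in uninduced replicate 4, against 239 to 246 in the other uninduced arrays. Hsph1 probe set 1 read 1519.9 in uninduced replicate 4, against 2288 to 2400.2. Hspa9 probe set 3 read 13.7 in uninduced replicate 1, against 9.7 to 10.1, at a level under the filter. No Hspb1 probe set was among them.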

How the results depend on the processing

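The 3 Hspb1 calls held in all 18 alternative fits, and by single-symbol probe sets 0 of the listed other chaperone genes were called in any of 19. The probe sets shared by Hspa1a and Hspa1b were tried in the same alternatives, chosen after seeing the data: the second was called in 18 of 18 and the brighter in 7 of 18. Of 340 alternative values of the 19 tested probe sets, 332 kept their sign and their side of the threshold, 7 changed sign and 1 (Hspa1l, no trend) passed newly. All 433 calls became 229 with median centring (166 higher, 63 lower, 72.5% higher against 58.0%), 279 without the trend and 221 without the pair of other source label wording. With the replicate block they were 367, and the Hspb1 calls stayed. Dnajb1 probe set 2 turned to 0.031 with median centring and 0.00046 with quantile normalization, and ran from -0.077 to 0.095 without 1 array; Cryab probe set 2 ran from -0.40 to 0.19. The change of the log2 ratio of probe set 2 to 1 of Cryab (0.00043) was -0.0075 with a constant of 1, -0.033 with quantile normalization and -0.26 to 0.47 without 1 array. That of Hsph1 (-0.011) was 0.029 with quantile normalization and -0.21 to 0.22 without 1 array. That of Hspb1 probe set 3 to 1 (0.023) was -0.012 without the wording pair and -0.017 to 0.069 without 1 array. Without 1 array it ran from -0.031 to 0.15 for Hspa4, -0.021 to 0.24 for Hspa9 and -0.30 to 0.12 for Dnaja1. None of these ratios passed, and the cause of the changes was not tested. Signals near the background controls limit Hspa1a, Hspa1l and the second probe set of Hspb2. They also limit the second and the next of the probe sets shared by Hspa1a and Hspa1b.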
